A study of Homo sapiens with 17 samples.

Results

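The unfolded protein response and the integrated stress response are the transcriptional programmes with which cells answer protein folding problems in the endoplasmic reticulum and a shortage of amino acids. Their members here are the 38 genes, of 27315 in the deposited table, whose symbols stand in a list of stress sensors and transcription factors, feedback genes of the ATF4 pathway, enzymes of serine, glycine, asparagine and cysteine synthesis, endoplasmic reticulum chaperones, and genes that mark or remove misfolded proteins. All 38 symbols were found, and 37 passed the filter on low values. The exception was PHGDH, the enzyme that opens serine synthesis, whose mean of 5.40 lay close to the table's floor of 5.14. That floor is the 1st percentile of the gene means, and single values reached down to 4.85.

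RNA was sequenced from 786-O, an established human line of clear cell kidney cancer that has lost functional VHL, so that the hypoxia-inducible factor HIF2a (gene EPAS1) accumulates. The groups were HIF2a sg4 and HIF2a sg6, which are 2 guide RNAs against HIF2a, with HIF2a sgscr as their scrambled-guide control, and USP37 sg3 and USP37 sg9, which are 2 guide RNAs against USP37, a deubiquitinase, with USP37 sgscr as a separate scrambled-guide control. Every group had 3 libraries except the USP37 control, which had 2, numbered 2 and 3. All groups, controls included, had received lentiviral CRISPR-V2 carrying a guide and antibiotic selection, and the labels describe neither single clones nor whether the replicates came from separate cultures. The p-values therefore measure only the spread between these libraries, which may be technical.

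In the unfolded protein response, the sensor IRE1 (gene ERN1) cuts XBP1 mRNA so that active XBP1 is made, the sensor ATF6 is cleaved to release a transcription factor, and the sensor PERK (gene EIF2AK3) phosphorylates the translation factor eIF2. Phosphorylated eIF2 slows translation in general and favours that of ATF4, where the integrated stress response converges. ATF6 and XBP1 raise chaperone and degradation genes, while ATF4, with C/EBP partners, raises genes of amino acid supply and its own inhibitors. The table measures total mRNA, so eIF2 phosphorylation, ATF6 cleavage, ATF4 translation and XBP1 splicing were not measured.

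Promoter elements to which these factors are known to bind are shown because the members carrying them are followed below. The ERSE and ERSE-II elements defined next were found in 8 of the 13 chaperones and in HERPUD1. The windows searched for DNAJB9, DNAJB11, DNAJC3, PDIA4 and MANF held none of the motifs. RefSeq promoters (build GRCh38.p14, 250 bases before to 50 bases after the start) were matched for 35 of the 38 members and searched on both strands for exact letters. A single annotated start was taken for each gene, so elements near any other start of the gene would be missed. The endoplasmic reticulum stress element ERSE, CCAAT and CCACG with any 9 bases between them, was in 6 of the 35 member promoters and in 27 of all 35116 promoters (0.0769%). Its variant ERSE-II, ATTGG and CCACG with any 1 base between them, was in 3 member promoters and in 19 of all promoters (0.0541%). The sites are given 5′ to 3′ on the strand that reads as the motif, with the motif's fixed letters in capitals and 10 flanking bases on each side.
HSPA5 ERSE (chr9:125241381-125241419, minus strand): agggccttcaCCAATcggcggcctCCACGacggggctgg
HSP90B1 ERSE, distal (chr12:103930206-103930244, plus strand): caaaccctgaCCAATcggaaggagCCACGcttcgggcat
HSP90B1 ERSE, proximal (chr12:103930311-103930349, minus strand): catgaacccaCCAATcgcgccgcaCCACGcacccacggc
PDIA6 ERSE (chr2:10812843-10812881, minus strand): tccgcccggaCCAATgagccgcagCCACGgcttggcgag
CALR ERSE (chr19:12938374-12938412, minus strand): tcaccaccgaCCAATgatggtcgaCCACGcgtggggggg
CANX ERSE (chr5:179698768-179698806, plus strand): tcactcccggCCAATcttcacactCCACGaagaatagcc
CRELD2 ERSE (chr22:49918544-49918582, minus strand): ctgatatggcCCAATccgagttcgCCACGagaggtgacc
SDF2L1 ERSE-II (chr22:21642104-21642134, minus strand): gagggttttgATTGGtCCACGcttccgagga
HYOU1 ERSE-II, distal (chr11:119057370-119057400, plus strand): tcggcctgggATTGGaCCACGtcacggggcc
HYOU1 ERSE-II, proximal (chr11:119057264-119057294, plus strand): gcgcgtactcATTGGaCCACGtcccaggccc
HERPUD1 ERSE-II (chr16:56932015-56932045, plus strand): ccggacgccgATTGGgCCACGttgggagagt
A match is a description of the letters and not evidence that a factor was bound in these cells.

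ATF4 with a C/EBP partner is known to bind a composite element, searched as TGATGNAA. It was in 3 member promoters and in 1270 of all promoters (3.62%), so a match is far less particular than one to ERSE. In each of the 3 sites the free base is c.
CEBPG (chr19:33374061-33374088, plus strand): gcgcggcgtcTGATGcAAcctgccggca
CHAC1 (chr15:40953252-40953279, minus strand): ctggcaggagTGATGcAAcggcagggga
HERPUD1 (chr16:56931956-56931983, minus strand): gggcacgggcTGATGcAAcccgccgcgt
The XBP1 element TGACGTGG was in 256 of all promoters (0.729%) and, among members, in that of HYOU1, where it overlaps the distal ERSE-II. HERPUD1 carries both an ERSE-II and the ATF4 element. To show the setting of these sites, the 250 bases before the start of HSPA5, HSP90B1 and HYOU1 follow in the direction of transcription, with each whole ERSE or ERSE-II match in capitals on whichever strand it lies.
HSPA5 (chr9:125241344-125241593, minus strand): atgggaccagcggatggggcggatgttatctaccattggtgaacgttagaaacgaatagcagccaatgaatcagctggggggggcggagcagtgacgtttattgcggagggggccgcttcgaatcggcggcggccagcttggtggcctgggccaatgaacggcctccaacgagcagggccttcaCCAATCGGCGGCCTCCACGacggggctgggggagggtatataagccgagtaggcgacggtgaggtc
HSP90B1 (chr12:103930160-103930409, plus strand): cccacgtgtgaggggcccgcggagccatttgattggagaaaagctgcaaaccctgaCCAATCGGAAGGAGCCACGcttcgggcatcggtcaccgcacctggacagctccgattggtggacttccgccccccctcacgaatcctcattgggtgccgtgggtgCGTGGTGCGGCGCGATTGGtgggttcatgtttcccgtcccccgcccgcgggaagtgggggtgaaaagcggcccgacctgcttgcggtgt
HYOU1 (chr11:119057206-119057455, minus strand): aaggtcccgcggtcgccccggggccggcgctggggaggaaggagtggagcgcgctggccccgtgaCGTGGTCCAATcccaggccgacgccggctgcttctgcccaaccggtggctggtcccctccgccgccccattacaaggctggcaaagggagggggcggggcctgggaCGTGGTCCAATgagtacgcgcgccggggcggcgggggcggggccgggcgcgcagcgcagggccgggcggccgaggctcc
By exact letters HSPA5 held a single ERSE, 66 to 48 bases before its start, and HSP90B1 and HYOU1 held 2 sites each. Copies that depart from the exact letters were not searched for, so these counts are not totals of the elements in each promoter.

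**Figure D1:**
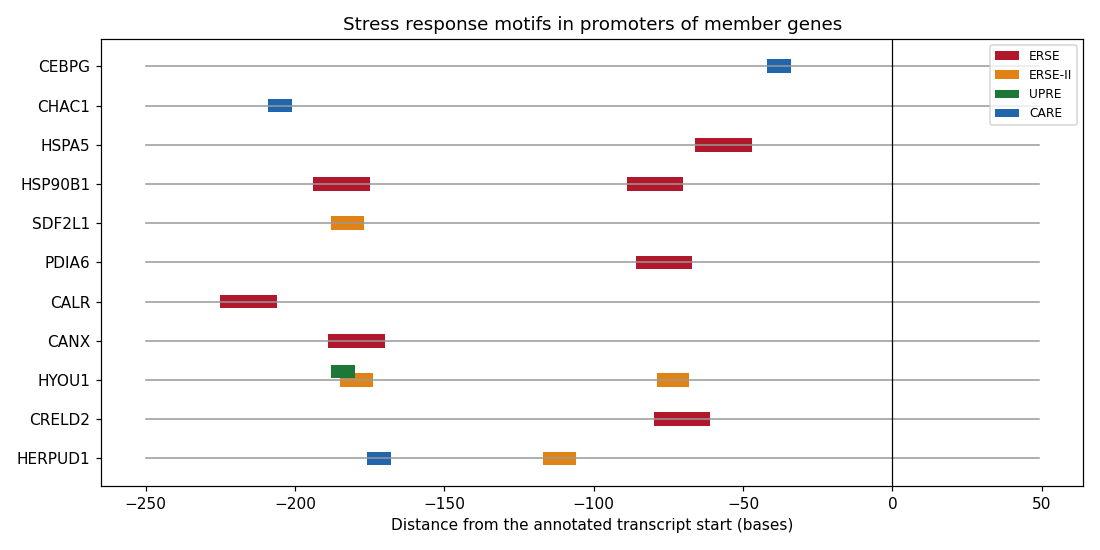
Positions of the 4 searched motifs in the promoters of the members that hold any of them. The x axis is the distance from the annotated transcript start in bases, each row is a gene and each bar a motif match, so that 6 members show an ERSE and 3 an ERSE-II, all before the start.

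Values throughout are the authors' batch-corrected, variance-stabilised expression values on a log2-like scale, which flattens towards the floor, so changes of weakly expressed genes are understated. They are not scaled to transcript length, and levels are compared within a gene only. Depth per library is unknown, since the table holds no counts. EPAS1 was lower with its guides (mean 9.54 with sg4 and 10.34 with sg6, against 11.91 in the HIF2a control), and USP37 with its own (8.33 with sg3 and 8.13 with sg9, against 9.24 in the USP37 control). The mRNAs were also lower with the other target's guides: EPAS1 was 11.47 with sg3 and 11.37 with sg9, against 12.14 in the USP37 control, and USP37 was 8.55 with sg4 and 8.49 with sg6, against 8.96 in the HIF2a control. Of 10 renal carcinoma and epithelial markers 9 passed the filter, against 0 of 3 endothelial, 1 of 4 fibroblast and 1 of 5 leukocyte markers. In an alternative chosen after seeing the data, 3 libraries of the HIF2a experiment were left out together, numbers 2 and 3 of sg6 and number 2 of the control. The median absolute difference to the other libraries of the group was 0.198 and 0.197 for these sg6 libraries and 0.155 for the control library, against 0.156 for sg6 replicate 1 and at most 0.153 elsewhere. That alternative leaves sg6 with 1 library, whose spread is then taken from the other groups. Leaving out either USP37 control library likewise leaves that control with 1. A call lost in such a fit can reflect a larger SE as well as a changed effect. Effects are guides minus control from limma fitted to all 12484 genes tested, and a gene is called where its Benjamini-Hochberg adjusted p over all of them is under 0.05.

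With the HIF2a guides, most of the members that changed rose: 13 of 37 rose and 2 fell. They were called in 40.5% of cases, against 30.6% of all genes tested (16.1% higher and 14.5% lower), and their median effect was 0.17, against -0.0045 over all genes. In 7 of the 37 the 6 guide libraries lay wholly above or below the 3 control libraries, as they did in 25.2% of all genes (13.1% above and 12.1% below). By role, 7 of 13 chaperones and folding enzymes rose and 0 fell, 4 of 11 sensors and transcription factors rose and 0 fell, 1 of 4 feedback genes rose and 1 fell, 1 of 3 degradation genes rose and 1 fell, and 0 of 6 tested amino acid enzymes passed the test. Of those 6 enzymes, 0 also had an unadjusted p under 0.05. Without HIF2a control replicate 1, 9 members were called, among them 4 chaperones, 2 sensors or factors and 1 feedback gene. Among the few feedback and degradation genes, leaving out control replicate 3 or 2 also left 1 call each, and without sg6 replicate 3, 1 amino acid enzyme was called.

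TRIB3, a pseudokinase that is induced by ATF4 and in turn binds and restrains it, changed most among the members. It measured 9.50, 9.18 and 9.12 with sg4 and 10.24, 10.02 and 10.44 with sg6, against 11.17, 11.16 and 10.97 in the HIF2a control. Every guide library was below every control library, and every sg4 library was below every sg6 library. It fell by 1.35 (SE 0.11, adjusted p = 3.26e-09).

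ATF4 itself measured 11.25, 11.36 and 11.08 with sg4 and 11.35, 11.15 and 11.64 with sg6, against 11.49, 11.24 and 11.33 in the HIF2a control. The groups overlapped, and the difference of -0.05 (SE 0.10, adjusted p = 0.748) was within the spread. DDIT3, which encodes the death-promoting factor CHOP, measured 7.16, 7.21 and 6.70 with sg4 and 7.25, 6.94 and 7.74 with sg6, against 7.41, 7.16 and 7.37 in the control. These also overlapped (-0.15, SE 0.14, adjusted p = 0.474). ATF3, a stress-induced factor, and NUPR1, a small chromatin protein induced by stress, likewise missed the threshold, at -0.11 and 0.12.

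CEBPB, a leucine zipper factor that can pair with ATF4, stood clear of its control in every library. It measured 11.37, 11.41 and 11.42 with sg4 and 11.29, 11.33 and 11.49 with sg6, against 10.65, 10.73 and 10.81 in the control, a rise of 0.66 (SE 0.08, adjusted p = 1.46e-06). The effect was 0.67 for sg4 and 0.64 for sg6. XBP1 measured 11.73, 11.95 and 11.84 with sg4 and 11.74, 11.82 and 11.88 with sg6, against 11.31, 11.51 and 11.40 in the control. Its rise of 0.42 (SE 0.08, adjusted p = 0.000265) was again without overlap between groups, and the table does not separate its spliced from its unspliced form.

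ATF5, a factor made under stress much as ATF4 is, measured 8.93, 9.01 and 8.89 with sg4 and 8.74, 9.30 and 8.63 with sg6, against 8.30, 8.51 and 8.53 in the HIF2a control. The groups did not overlap, and it rose by 0.47 (SE 0.13, adjusted p = 0.00859), although without control replicate 1 the adjusted p was 0.0689. ERN1 measured 7.60, 7.43 and 7.59 with sg4 and 7.34, 7.15 and 8.18 with sg6, against 6.81, 7.15 and 7.13 in the control. Here sg6 replicate 3 stood far above the other libraries and sg6 replicate 2 lay at the control's level, and the call (0.51, SE 0.19, adjusted p = 0.0418) was lost under 10 of the alternatives, the replicate block among them, with an adjusted p of up to 0.208. ATF6 measured 10.36, 10.28 and 10.23 with sg4 and 10.33, 10.06 and 10.41 with sg6, against 10.18, 10.38 and 10.15 in the control, and was not called (0.04, SE 0.09, adjusted p = 0.78). EIF2AK3 was not called either, at 0.00 (SE 0.08, adjusted p = 0.99).

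SESN2 encodes sestrin 2, which curbs the growth kinase mTORC1. It measured 8.94, 9.05 and 8.88 with sg4 and 9.52, 9.30 and 10.13 with sg6, against 8.85, 9.10 and 8.60 in the HIF2a control. The libraries of sg4 overlapped the control and those of sg6 lay above both, with replicate 3 highest. The mean of the guides rose by 0.46 (SE 0.14, adjusted p = 0.0165), and the adjusted p was 0.0572 without control replicate 1 and 0.127 without control replicate 3. CHAC1, which degrades glutathione, and PPP1R15A, which brings the eIF2 phosphatase to its substrate, were not called at 0.49 (SE 0.23, adjusted p = 0.117) and -0.08 (SE 0.08, adjusted p = 0.517).

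Among the 13 chaperones and folding enzymes, the 7 that rose did so by 0.22 to 0.65. SDF2L1, a component of the chaperone complex in its lumen, had the largest change of the 13, at 9.44, 9.91 and 9.65 with sg4 and 9.28, 9.55 and 8.81 with sg6, against 8.71, 8.53 and 9.11 in the control. Only sg6 replicate 3 fell within the control's range, and the rise was 0.65 (SE 0.15, adjusted p = 0.00157). HSPA5, the central chaperone BiP, measured 14.44, 14.63 and 14.68 with sg4 and 14.31, 14.35 and 14.10 with sg6, against 13.97, 14.15 and 14.16 in the control. Again sg6 replicate 3 was the one guide library within the control's range, and the rise was 0.32 (SE 0.08, adjusted p = 0.00366).

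HYOU1, a large chaperone that assists BiP, and CANX, the membrane lectin that folds glycoproteins, were the 2 of the 13 chaperones whose groups did not overlap, with rises of 0.39 (SE 0.08, adjusted p = 0.000995) and 0.30 (SE 0.07, adjusted p = 0.00275). DNAJC3, a cochaperone that also inhibits PERK, rose by 0.33, and the disulfide isomerases PDIA4 and PDIA6 by 0.22 and 0.26. Those last calls were fragile: an adjusted p above the threshold came with PDIA4 under 10 alternatives, with PDIA6 under 14, the replicate block among them for both, and with DNAJC3 without control replicate 1 (0.122) or 3 (0.0951). By single guide, DNAJC3 was called with sg6 but not sg4, and PDIA4 and PDIA6 with sg4 but not sg6. PDIA4 measured 13.46, 13.64 and 13.66 with sg4 and 13.23, 13.22 and 13.12 with sg6, against 13.10, 13.20 and 13.21 in the control. In the mean of the guides, the 6 uncalled members ran from -0.06 (DNAJB9) to 0.23 (CRELD2), among them HSP90B1 at -0.01 and CALR at 0.21 (adjusted p = 0.0811).

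Of the degradation members, EDEM1, which hands misfolded glycoproteins to the degradation machinery, moved against the chaperones. It measured 9.66, 9.71 and 9.68 with sg4 and 9.60, 9.23 and 9.66 with sg6, against 10.11, 9.94 and 10.01 in the control. With no overlap between groups it fell by 0.43 (SE 0.09, adjusted p = 0.00102). HERPUD1, a scaffold of the degradation complex, rose by 0.26 (SE 0.07, adjusted p = 0.00795), a call lost without control replicate 2 (adjusted p = 0.0565) and without the 3 libraries named above (0.118). SEL1L, the partner of the ubiquitin ligase HRD1, was at 0.18 (SE 0.11, adjusted p = 0.251).

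Of the 9 members whose promoters hold an ERSE or ERSE-II printed above, 6 rose with the HIF2a guides (HSPA5, SDF2L1, PDIA6, CANX, HYOU1 and HERPUD1), 0 fell and 3 were not called, where 16.1% of all genes rose and 14.5% fell. These calls are on the mean of the guides. By single guide, HYOU1 was called higher with both. HSPA5, SDF2L1, PDIA6, CANX and also CALR were called higher with sg4 only, and HERPUD1 with sg6 only. HSP90B1, also among the 9, was called lower with sg6. Of the 7 matched chaperone and degradation members with neither motif in the window searched, 2 rose (DNAJC3 and PDIA4), 1 fell (EDEM1) and 4 were not called. With the USP37 guides the 9 divided into 4 that rose, 1 that fell and 4 not called, where 22.4% of all genes rose and 21.9% fell, and the 7 held 0 calls. The counts are too small to set the classes apart and were not tested.

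**Figure D2:**
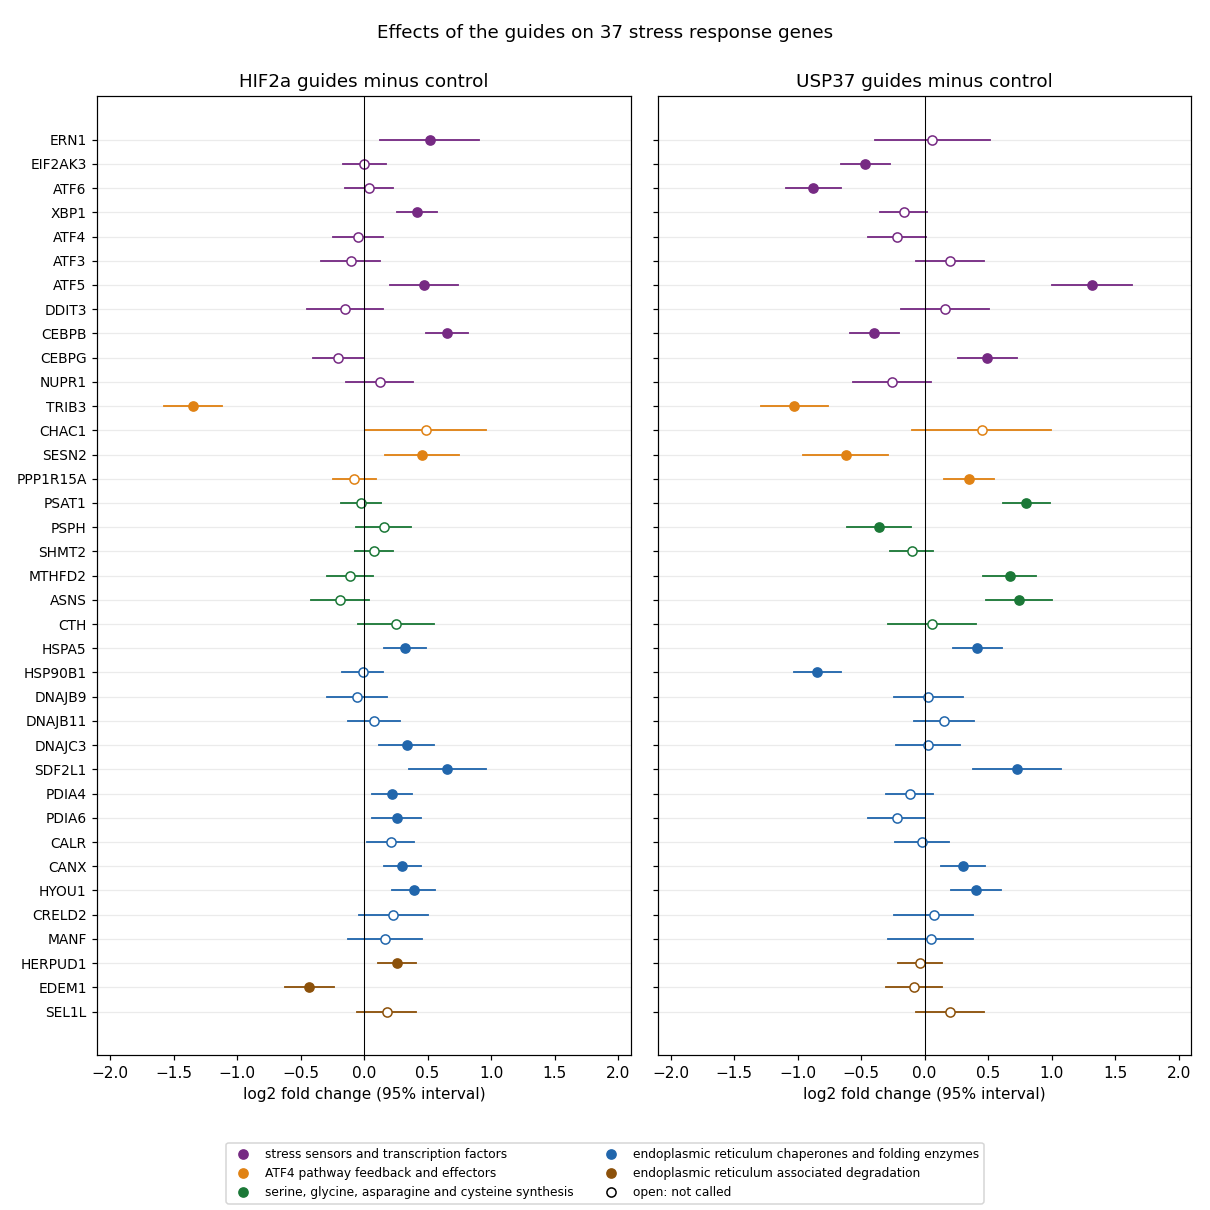
Guides minus control for the 37 tested members, HIF2a on the left and USP37 on the right. The x axis is the log2 fold change, points are estimates, lines their 95% intervals, and filled points are called. The chaperones in blue lie mostly right of 0 with the HIF2a guides, while with the USP37 guides 3 amino acid enzymes in green lie at 0.67 to 0.80.

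With the USP37 guides the members moved in both directions, 10 up and 7 down of 37. The share called, 45.9%, was close to that of all genes tested, 44.3% (22.4% higher and 21.9% lower), and the median effect was 0.05, against 0.0060 over all genes. In 18 members the guide and control libraries did not overlap, against 41.2% of all genes (20% above and 21.2% below). By role, 3 of 6 tested amino acid enzymes rose and 1 fell, 4 of 13 chaperones rose and 1 fell, 2 of 11 sensors and transcription factors rose and 3 fell, 1 of 4 feedback genes rose and 2 fell, and 0 of 3 degradation genes passed the test. Of those 3 genes, 0 had an unadjusted p under 0.05.

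The enzymes that make serine-derived carbon units and asparagine, known targets of ATF4, rose together in part. PSAT1, the transaminase of serine synthesis, measured 11.63, 11.64 and 11.47 with sg3 and 11.53, 11.79 and 11.77 with sg9, against 10.79 and 10.89 in the USP37 control. ASNS, asparagine synthetase, measured 10.05, 10.08 and 9.92 with sg3 and 9.91, 10.09 and 10.10 with sg9, against 9.20 and 9.36 in the control. MTHFD2, a mitochondrial enzyme of the folate cycle, measured 11.25, 11.34 and 11.21 with sg3 and 11.22, 11.59 and 11.55 with sg9, against 10.68 and 10.70 in the control. In each of these 3 enzymes all 6 guide libraries lay above the control. The rises were 0.80 (SE 0.09, adjusted p = 5.59e-07) for PSAT1, 0.74 (SE 0.13, adjusted p = 8.9e-05) for ASNS and 0.67 (SE 0.10, adjusted p = 2.35e-05) for MTHFD2.

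The other enzymes did not share that rise. PSPH, the phosphatase that completes serine synthesis, fell by 0.36 (SE 0.12, adjusted p = 0.0203). By single guide it was called with sg3 (-0.54) but not with sg9 (-0.18). The call on the mean of the guides was lost without control replicate 2 or 3, though the effect stayed at -0.363 and -0.353. PSPH also has a near-identical pseudogene whose reads may be counted with it. SHMT2, the mitochondrial serine hydroxymethyltransferase, was at -0.10 (SE 0.08, adjusted p = 0.329) and CTH, which makes cysteine, at 0.06 (SE 0.17, adjusted p = 0.798). PHGDH, not tested, lay between 4.94 and 6.02 in all 17 libraries.

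ATF4 mRNA was not called. It measured 11.77, 11.73 and 11.64 with sg3 and 11.997, 11.82 and 11.81 with sg9, against 12.12 and 11.91 in the USP37 control, with overlapping groups (-0.22, SE 0.11, adjusted p = 0.114). DDIT3 measured 8.05, 7.96 and 7.76 with sg3 and 8.29, 8.49 and 8.29 with sg9, against 8.03 and 7.93 in the control, where sg9 lay above the control and sg3 around it (0.16, SE 0.17, adjusted p = 0.451). ATF5 had the largest rise of the 37 members. It measured 9.12, 9.28 and 9.64 with sg3 and 9.78, 9.69 and 9.75 with sg9, against 8.04 and 8.41 in the control, a change of 1.32 (SE 0.15, adjusted p = 8.92e-07) with no overlap. CEBPG, a C/EBP partner of ATF4 whose promoter element is printed above, rose by 0.49 (SE 0.11, adjusted p = 0.00127), with an adjusted p of 0.0548 without control replicate 3.

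TRIB3 fell here too. It measured 10.59, 10.29 and 10.22 with sg3 and 10.92, 10.59 and 10.67 with sg9, against 11.67 and 11.48 in the USP37 control, a difference of -1.03 (SE 0.13, adjusted p = 2.51e-06) with no overlap. SESN2 measured 8.92, 8.74 and 8.60 with sg3 and 8.85, 8.54 and 8.59 with sg9, against 9.36 and 9.30 in the control, and fell by 0.62 (SE 0.16, adjusted p = 0.00371), also without overlap. PPP1R15A rose by 0.35 (SE 0.09, adjusted p = 0.00504), a call lost without control replicate 3 (0.0831). CHAC1 was not called, at 0.45 (SE 0.26, adjusted p = 0.177).

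Transcripts of the sensors ATF6 and PERK were lower with both USP37 guides. ATF6 measured 10.05, 9.77 and 9.88 with sg3 and 9.59, 9.43 and 9.46 with sg9, against 10.68 and 10.46 in the USP37 control. EIF2AK3 measured 9.55, 9.41 and 9.24 with sg3 and 9.11, 9.14 and 9.09 with sg9, against 9.72 and 9.73 in the control. In both genes sg9 lay below sg3 and sg3 below the control with no overlap, and the differences were -0.88 (SE 0.10, adjusted p = 1.55e-06) for ATF6 and -0.47 (SE 0.09, adjusted p = 0.000413) for EIF2AK3. ERN1 was at 0.06 (SE 0.22, adjusted p = 0.838). XBP1 measured 11.34, 11.11 and 11.11 with sg3 and 11.23, 11.07 and 11.25 with sg9, against 11.36 and 11.34 in the control, and was not called (-0.17, SE 0.09, adjusted p = 0.139).

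CEBPB depended on the guide. It measured 10.08, 9.97 and 10.08 with sg3 and 11.0006, 10.93 and 10.64 with sg9, against 10.88 and 10.81 in the control. With sg3 it was -0.80 (SE 0.10, adjusted p = 5.28e-06) and with sg9 0.01 (SE 0.10, adjusted p = 0.951), so the called mean effect of -0.40 describes neither guide.

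The chaperones of the endoplasmic reticulum divided. SDF2L1 measured 8.75, 8.64 and 8.97 with sg3 and 9.16, 9.40 and 9.54 with sg9, against 8.38 and 8.32 in the USP37 control, a rise of 0.73 (SE 0.17, adjusted p = 0.00155). HSPA5 measured 14.62, 14.54 and 14.63 with sg3 and 14.27, 14.21 and 14.36 with sg9, against 14.05 and 14 in the control, a rise of 0.42 (SE 0.09, adjusted p = 0.00103). In both, each guide library was above each control library, with sg9 highest for SDF2L1 and sg3 highest for HSPA5. HYOU1 rose by 0.41 (SE 0.10, adjusted p = 0.00175) and CANX by 0.30 (SE 0.08, adjusted p = 0.00587, and 0.0838 without control replicate 3). By single guide, HSPA5 was called with both, SDF2L1 with sg9 but not sg3, and HYOU1 and CANX with sg3 but not sg9.

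HSP90B1, the chaperone GRP94, which carries 2 ERSE sites, went the other way. It measured 14.09, 13.92 and 13.87 with sg3 and 13.66, 13.38 and 13.46 with sg9, against 14.57 and 14.57 in the control. The guide libraries lay wholly below the control, with sg9 lowest, and it fell by 0.84 (SE 0.09, adjusted p = 3.45e-07). The 8 uncalled chaperones ran from -0.22 (PDIA6) to 0.15 (DNAJB11). Among degradation members SEL1L was at 0.20, EDEM1 at -0.08 and HERPUD1 at -0.04.

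**Figure D3:**
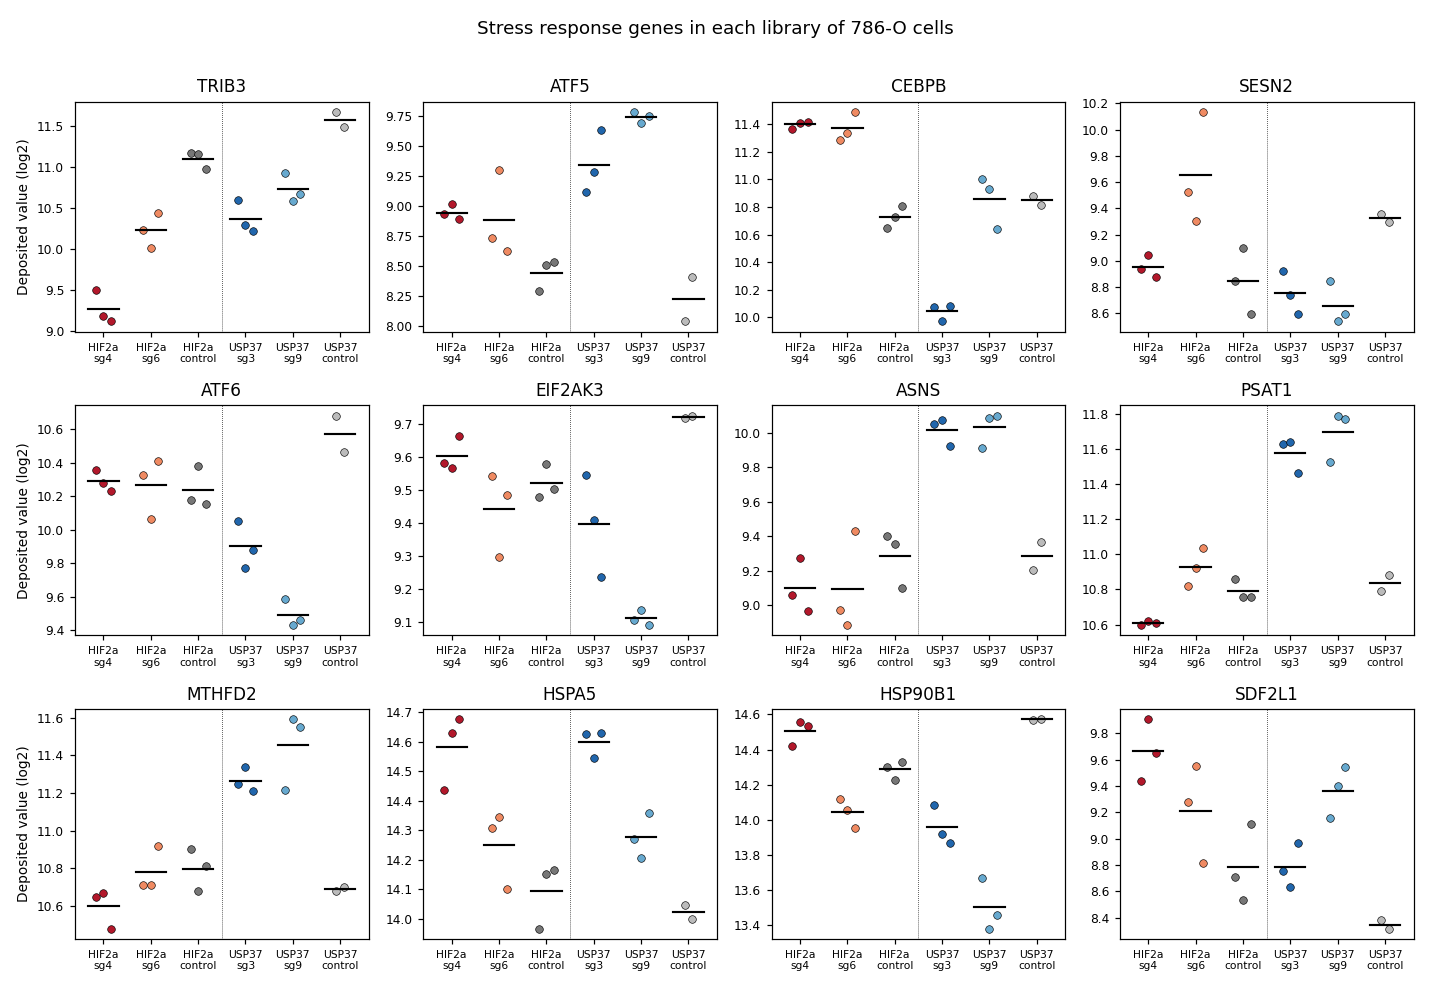
Deposited log2 value of 12 members in each library, with a bar at each group mean and HIF2a groups left of USP37 groups. TRIB3 lies below its control in both experiments, ATF5 above it, and ATF6, EIF2AK3, ASNS, PSAT1 and MTHFD2 stand apart from the control in the USP37 experiment.

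Set side by side, the experiments have separate controls, and 5 members rose in both: ATF5, HSPA5, SDF2L1, CANX and HYOU1. That is 5 of the 13 that rose with the HIF2a guides and 5 of the 10 that rose with the USP37 guides, or 13.5% of the tested members, while 3.65% of all genes tested rose in both. The calls for ATF5 with the HIF2a guides and CANX with the USP37 guides are among those lost without a control library, as given above. Among these 5 members, ATF5 alone was called higher with every single guide of both targets. HSPA5, SDF2L1 and CANX were not called with HIF2a sg6, SDF2L1 not with USP37 sg3, and CANX and HYOU1 not with USP37 sg9. TRIB3 alone among the members fell in both, as did 4.77% of all genes. In the means of the guides CEBPB and SESN2, 5.41% of the tested members, were called higher in the HIF2a experiment and lower in the USP37 experiment, as were 4.35% of all genes. Single guides did not all follow: CEBPB was at 0.01 with USP37 sg9 and SESN2 at 0.11 with HIF2a sg4, neither called, and the HIF2a call for SESN2 was lost without control replicate 1 or 3. Another 13 members (35.1%) were called in neither experiment, as were 40.4% of all genes. These shares are descriptions, not tests.

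The difference of the effects, USP37 minus HIF2a, was itself tested. It was called for 16 of the 37 members (43.2%), 6 higher and 10 lower, against 38.6% of all genes tested (19.6% higher and 19% lower). The call count was 11 without USP37 control replicate 3. The 4 largest differences were -1.08 for SESN2 (SE 0.21, adjusted p = 0.000472), -1.05 for CEBPB (SE 0.12, adjusted p = 1.06e-06), 0.93 for ASNS (SE 0.17, adjusted p = 0.000185) and -0.92 for ATF6 (SE 0.14, adjusted p = 2.78e-05).

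Among the amino acid enzymes ASNS, PSAT1 and MTHFD2 had a higher effect with the USP37 guides, with differences of 0.93, 0.82 and 0.78, and PSPH a lower one, with a difference of -0.51. In the HIF2a experiment ASNS measured 9.06, 9.27 and 8.97 with sg4 and 8.97, 8.88 and 9.43 with sg6, against 9.40, 9.35 and 9.10 in the control, with overlapping groups (-0.19, SE 0.11, adjusted p = 0.206). HSP90B1, PDIA6 and PDIA4 had a lower effect with the USP37 guides, with differences of -0.83, -0.48 and -0.34, and 0 of the 13 chaperones a higher one; without USP37 control replicate 3, 1 chaperone was called. Among the sensors and factors ATF6, XBP1 and EIF2AK3 differed by -0.92, -0.58 and -0.47, and ATF5 and CEBPG by 0.85 and 0.70.

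Members that rose in both experiments showed no detected difference. The intervals of the difference spanned 0, at 0.09 (SE 0.12) for HSPA5, 0.07 (SE 0.22) for SDF2L1, -0.0018 (SE 0.11) for CANX and 0.02 (SE 0.13) for HYOU1. TRIB3 differed by 0.32 (SE 0.17, adjusted p = 0.134), which does not show that its falls were alike. ATF5 was the exception, called higher with the USP37 guides.

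**Figure D4:**
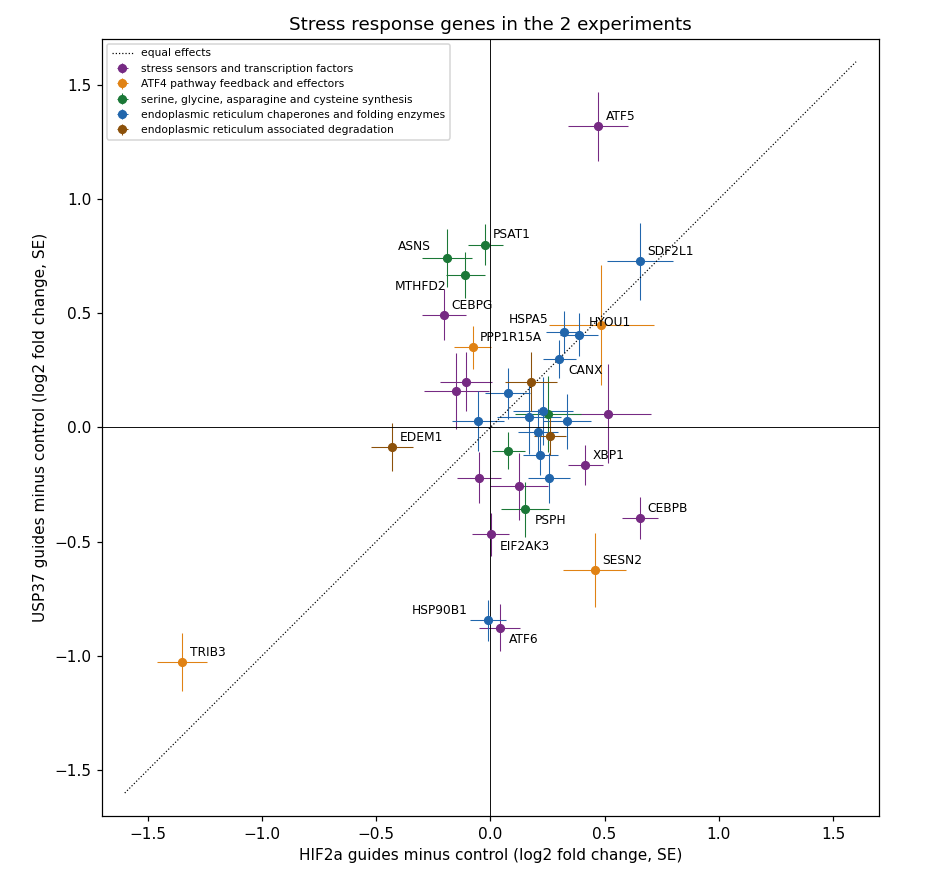
Effect of the HIF2a guides (x axis) against that of the USP37 guides (y axis), both as log2 fold change with its SE, for the 37 tested members coloured by role; the dotted line marks equal effects. TRIB3 sits at the lower left, ATF5 highest, ASNS, PSAT1 and MTHFD2 above the line and HSP90B1, ATF6 and SESN2 below it.

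The guides against HIF2a were also compared with each other. Between sg6 and sg4, 10 of 37 members were called (27%), against 9.22% of all genes tested (4.86% higher and 4.36% lower). The 5 lower with sg6 were the chaperones HSPA5 (-0.33), HSP90B1 (-0.46), DNAJB11 (-0.37), PDIA4 (-0.40) and MANF (-0.61), the last a protein of the endoplasmic reticulum that is secreted under stress. The 5 higher were TRIB3 (0.96), SESN2 (0.70), NUPR1 (0.52), PSPH (0.42) and PSAT1 (0.32), none of which is a chaperone. Roles as such were not tested. Of the 13 chaperones 12 had a negative difference and of the 4 feedback genes all 4 a positive one. Replicate 3 of sg6 had the highest value of the 9 libraries of its experiment for CHAC1 (8.35), SESN2 (10.13), DDIT3 (7.74) and ERN1 (8.18), and the lowest of the guide libraries for SDF2L1 (8.81), HSPA5 (14.10) and MANF (9.53).

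The count depended on few libraries: it was 4 without sg4 replicate 2, sg4 replicate 3 or sg6 replicate 3, 15 without sg6 replicate 2 and 3 without the 3 libraries left out together. It was also 6 with no filter and 5 with array weights. EPAS1 mRNA was lower with sg4 than with sg6, and its part in these differences was not tested. Against the control, sg4 gave 11 higher and 2 lower members, where 25.3% of all genes were called (13.2% higher and 12.1% lower), and 8 of the 13 chaperones were among the 11. Without sg4 replicate 2, 8 members in all were called for sg4, and with array weights 23. With sg6 there were 9 higher and 3 lower members, where 29% of all genes were called (15.2% higher and 13.8% lower), and 2 of the 13 chaperones rose (HYOU1 and DNAJC3) while HSP90B1 fell by 0.24 (SE 0.09, adjusted p = 0.0461). Without sg6 replicates 2 and 3 and control replicate 2 together, 6 members were called for sg6. CHAC1 was called with sg6 (0.90, SE 0.26, adjusted p = 0.014) through values of 7.27, 6.80 and 8.35, against 6.87, 6.38 and 6.48 in the control.

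The guides against USP37 also differed. Between sg9 and sg3, 13 of 37 members were called, against 30.8% of all genes tested (16.6% higher and 14.2% lower). CEBPB (0.81), NUPR1 (0.69), SDF2L1 (0.58), DNAJB9 (0.43), PSPH (0.36), TRIB3 (0.36) and SHMT2 (0.24) were higher with sg9. HSP90B1 (-0.46), HYOU1 (-0.44), ATF6 (-0.41), CANX (-0.37), HSPA5 (-0.32) and EIF2AK3 (-0.29) were lower with it. The 3 enzymes that rose most differed little between these guides, at 0.12 for PSAT1, 0.19 for MTHFD2 and 0.02 for ASNS. Against the control, sg3 gave 8 higher and 8 lower members (35.2% of all genes called, 16.8% higher and 18.4% lower) and sg9 gave 8 higher and 5 lower (47.8% of all genes called, 24.6% higher and 23.2% lower). Only 8 members were called between sg9 and sg3 without sg3 replicate 2 and without sg9 replicate 3.

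The scrambled controls of the 2 experiments were not alike in these genes. In the USP37 control, compared with the HIF2a control, 13 of 37 members were higher and 2 lower, a share of 40.5%, the same as over all genes tested (40.5%, with 20.1% higher and 20.4% lower). Some members of the ATF4 pathway were among the higher ones, with PSPH at 1.32 (SE 0.13, adjusted p = 3.44e-07), NUPR1 at 1.03 (SE 0.16, adjusted p = 4.89e-05), DDIT3 at 0.67, ATF4 at 0.66 and TRIB3 and SESN2 at 0.48 each. Others were not called, among them ATF5 at -0.22, MTHFD2 at -0.11, ASNS at -0.0016 and PSAT1 at 0.05. HYOU1 (-0.61) and CEBPG (-0.48) were lower. Experiment and control cannot be told apart here, so apart from these values of the controls, levels are compared within an experiment only. The number of members called was lower without USP37 control replicate 2.

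Other genes of the same pathways were counted from lists chosen by function, and their shares stand beside the 30.6% of all genes called with the HIF2a guides and the 44.3% called with the USP37 guides. Of 14 genes for eIF2, its kinases and its exchange factor, 1 rose and 4 fell with the HIF2a guides, led by EIF2B5 (-0.40), EIF2B1 (-0.29) and NCK1 (-0.26), while 5 rose and 1 fell with the USP37 guides, led by EIF2B3 (0.61), EIF2B2 (0.50) and EIF2S1 (0.42). The shares called in this list were 35.7% with the HIF2a guides and 42.9% with the USP37 guides. Of these calls the 5 with the HIF2a guides came to 1 without control replicate 1 or 3, and the 6 with the USP37 guides to 3 without control replicate 3. Of 24 other ATF4 targets, 8 rose and 5 fell with the HIF2a guides and 7 rose and 7 fell with the USP37 guides, shares of 54.2% and 58.3%. The largest changes with the HIF2a guides were in SLC7A5, an amino acid transporter (-1.93, SE 0.14, adjusted p = 5.11e-10), GDF15, a stress hormone (1.77, SE 0.14, adjusted p = 3.57e-09), and SLC6A9, a glycine transporter (-1.76, SE 0.17, adjusted p = 5.17e-08). Without HIF2a control replicate 1, 8 of these targets were called with the HIF2a guides. With the USP37 guides the largest changes were in DDIT4, an mTORC1 inhibitor (-1.99, SE 0.20, adjusted p = 2.23e-07), KLHL24 (-1.51, SE 0.16, adjusted p = 4.26e-07) and VLDLR (-0.79, SE 0.11, adjusted p = 1.46e-05), and 9 targets were called without control replicate 2 and 6 without control replicate 3.

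Of 20 cytosolic tRNA synthetases, which charge tRNAs with amino acids, 2 rose and 0 fell with the HIF2a guides (VARS at 0.35 and KARS at 0.28), and 10 rose and 1 fell with the USP37 guides, led by FARSB (0.67), FARSA (0.59) and HARS (0.47). The shares called were 10% with the HIF2a guides, against 30.6% of all genes, and 55% with the USP37 guides, against 44.3% of all genes. Without USP37 control replicate 3, 7 of the synthetases were called, and without HIF2a control replicate 1 or 2, 0 or 4 were called with the HIF2a guides. Of 37 other endoplasmic reticulum genes, 11 rose and 3 fell with the HIF2a guides, led by WFS1 (0.65) and SIL1 (0.41), and 11 rose and 7 fell with the USP37 guides, with SERP1 at 0.69 and SEC61B at 0.67, shares of 37.8% and 48.6%. The 18 calls with the USP37 guides came to 8 without control replicate 2 and 11 without control replicate 3. PDIA5, a disulfide isomerase, fell in both, by 0.61 with the HIF2a guides and by 0.85 with the USP37 guides.

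Heat shock genes, which answer misfolded protein outside the endoplasmic reticulum, rose almost throughout their list in the USP37 experiment. Of 14 (HSF1, cytosolic chaperones and the mitochondrial HSPD1 and HSPE1), 13 rose with the USP37 guides and 0 fell, where 22.4% of all genes rose and 21.9% fell. In all 14 the guide libraries lay above the 2 control libraries, as they did in 20% of all genes. HSPA1B rose by 1.67 (SE 0.12, adjusted p = 2.7e-09), HSPE1 by 1.17 (SE 0.22, adjusted p = 0.000294) and HSPH1 by 0.85 (SE 0.09, adjusted p = 2.26e-07), and HSP90AB1 was not called at 0.22 (adjusted p = 0.0514). With the HIF2a guides 0 rose and 3 fell, HSPA1A (-0.62), DNAJB1 (-0.27) and DNAJA1 (-0.25), and the difference of the effects was called higher with the USP37 guides for 12 of the 14 (11 to 12 when single libraries were left out). HSPA1A and HSPA1B are near-identical copies whose reads may be divided between them. Leaving out single libraries, 11 to 14 of the heat shock genes were called with the USP37 guides, and with the HIF2a guides 1 without control replicate 3 and 5 without sg6 replicate 2 or USP37 sg9 replicate 3.

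**Figure D5:**
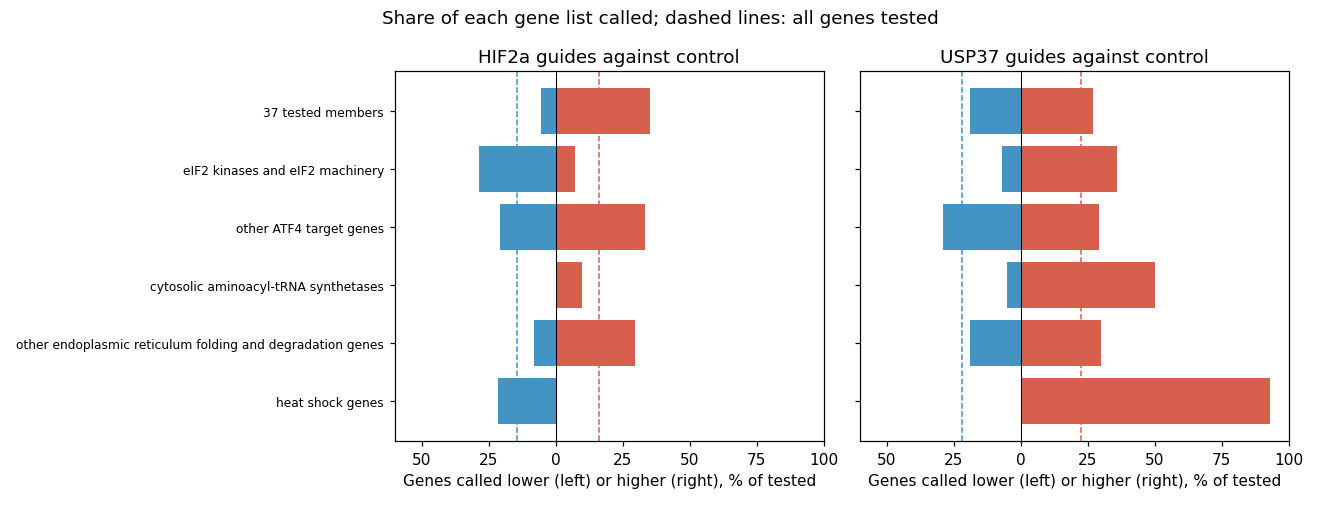
Share of the tested genes of each list called lower (left, blue) or higher (right, red), as a percentage, with the HIF2a guides on the left panel and the USP37 guides on the right. Dashed lines give the same shares over all genes tested, 14.5% lower and 16.1% higher with the HIF2a guides and 21.9% lower and 22.4% higher with the USP37 guides. The longest bar is that of the heat shock genes with the USP37 guides.

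In a GENCODE annotation of build GRCh38, 15 of the 38 members share exon sequence with a gene on the other strand. They are EIF2AK3, ATF5, DDIT3, CEBPB, SHMT2, MTHFD2, HSP90B1, DNAJB9, DNAJB11, PDIA6, CALR, CANX, HYOU1, CRELD2 and EDEM1. The authors' build was hg19, and the annotation behind their values was not searched. The library kit does not keep the strand of the RNA, so reads of such pairs cannot be told apart. Exon sequence is also shared with a gene on the same strand in 5 members: ATF5, DDIT3, ASNS, HSP90B1 and DNAJB11.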

How the data were processed

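Polyadenylated RNA of 786-O cells was sequenced as paired reads, per the labels' protocols. The table the authors deposited holds batch-corrected, variance-stabilised values on a log2 scale, for 27315 genes in 17 libraries. Tools named by the submitters' processing notes, with no roles, are STAR 2.5.2b, Salmon, cutadapt and DESeq2, on build hg19. Which batch was corrected is not given in the sources used here. For each gene the replicate-number means matched within 6.39e-14, so that number's effect had been taken out, which tends to make p-values too small. The USP37 control lacks a library for a replicate number that every other group has. Equal means over the numbers can therefore shrink differences from that control and add to the spread within groups. For HERPUD1 the difference of effects was -0.298, and -0.312 with the replicate block fitted. The size of this over all genes was not tested. No counts are held, so the depth and its precision are unknown.

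A gene was tested when its mean reached 1 log2 unit over the table's floor (5.14, the 1st percentile of the gene means), as 12484 did. A mean for each of the 6 groups was fitted in limma 3.58.1 under R 4.3.3, using a trended empirical Bayes variance (11 residual df). On simulated data with independent noise, the mean estimates lay close to the changes put in, which checks the code only. The simulation did not include removal of the replicate-number effect, so it does not bear on the p-values or on that shrinkage. Adjusted p-values are Benjamini-Hochberg over all genes tested, within a comparison. The members, lists and tests were chosen with earlier results of these data known. Library values are printed for 6 key members, for up to 5 called rises and 5 called falls per experiment and for the 4 largest differences of effects. For the other lists, up to 3 called genes each are named. Promoters are RefSeq, build GRCh38.p14, not the authors' build, and serve for sequence only. The alternatives were the filter, the replicate block, separate fits, array weights, the trend, equal library medians and leaving out libraries. The labels do not say that a replicate number marks a shared batch, and with the number's effect already removed the values cannot show whether the numbers pair the samples.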

Additional observations from a re-analysis of the deposited data

Results flagged for a closer look

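For 16 of the 37 tested members, the effect of the USP37 guides differed from that of the HIF2a guides by a test of the difference itself. The difference is USP37 minus HIF2a on the log2 scale, called at a Benjamini-Hochberg adjusted p under 0.05 from limma over all genes tested. It was negative for SESN2 (-1.08), CEBPB (-1.05), ATF6 (-0.92), HSP90B1 (-0.83), XBP1 (-0.58), PSPH (-0.51), PDIA6 (-0.48), EIF2AK3 (-0.47), PDIA4 (-0.34) and HERPUD1 (-0.30). It was positive for ASNS (0.93), ATF5 (0.85), PSAT1 (0.82), MTHFD2 (0.78), CEBPG (0.70) and PPP1R15A (0.43). Of these, 11 were called under every alternative in which they were tested. HERPUD1, PDIA4, PDIA6, PPP1R15A and PSPH lost the call under at least 1. Each effect is a mean over both guides of a target, and single guides did not always follow it. CEBPB was at 0.01 with USP37 sg9 and SESN2 at 0.11 with HIF2a sg4, neither called against its control. The groups of 2 or 3 libraries were too small for a test of single outlying libraries.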

How the results depend on the processing

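Over 25 alternative settings, no called effect of a single member changed sign, and of 2732 single-member values compared, 67 changed sign, all of them uncalled. With the HIF2a guides 8 of the 15 calls held under every alternative (CANX, CEBPB, EDEM1, HSPA5, HYOU1, SDF2L1, TRIB3 and XBP1), and with the USP37 guides 13 of 17, the exceptions being CANX, CEBPG, PPP1R15A and PSPH. With the replicate block, 12 members were called with the HIF2a guides, 17 with the USP37 guides and 15 for the difference. ERN1, PDIA4 and PDIA6 lost the call with the HIF2a guides, and HERPUD1 for the difference. Whether the numbers pair the samples could not be checked: correlations of same-numbered deviations within an experiment ran from -0.547 to 0.222, but removing the number's effect from the values pushes them down. Array weights, whose fit did not converge fully, gave 23 called members for sg4 against its control, where 13 were called, and 5 between sg6 and sg4, where 10 were. With no filter the count between sg6 and sg4 was 6. Without sg6 replicates 2 and 3 and control replicate 2 together it was 3, and 6 members were called for sg6 against its control, where 12 were.

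Leaving out single libraries, the members called ranged from 9 to 18 with the HIF2a guides, from 13 to 18 with the USP37 guides and from 11 to 17 for the difference. The ranges were 8 to 16 for sg4, 9 to 13 for sg6, 12 to 20 for sg3, 11 to 15 for sg9, 4 to 15 between sg6 and sg4, 8 to 16 between sg9 and sg3, and 7 to 16 between the controls. The count between sg6 and sg4 was 4 without sg4 replicate 2, sg4 replicate 3 or sg6 replicate 3. Over all genes tested, 3683 were called with the USP37 guides without their control replicate 2, against 5525 with all libraries. Between sg6 and sg4, 1151 genes were called, against 573 with array weights and 413 without those 3 libraries. For sg4 array weights gave 5150 genes, against 3159, and for sg6 leaving out those 3 libraries gave 2021, against 3624. The causes were not tested. Depth is unknown, so its limit on the weakly expressed members is unknown too.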
